A study of Mus musculus with 12 samples.

Results

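The response of the olfactory epithelium to removal of the olfactory bulbs was examined in mice treated with clodronate liposomes, which are taken up by phagocytes and kill them. The comparison set 3 arrays taken 48 h after bulbectomy (OBX) against 3 arrays taken after a sham operation, both in Lip-C mice, as mice given clodronate in liposomes are called here. These 6 arrays were chosen from the sample titles and are part of 12; the other 6 came from mice given empty liposomes (Lip-O), again 3 after OBX and 3 after sham surgery. All mice were male C57BL/6J mice aged 6 weeks. Liposomes were given through the nose (50 µl once a day for 3 days) and into a vein (200 µl on days 1 and 3), surgery fell on day 2, and the olfactory epithelium was microdissected. The titles call the samples biological replicates; the labels do not say whether tissue of several mice was combined, and p-values measure only the spread between these samples.

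Olfactory sensory neurons lie in the nasal epithelium and send their axons to the olfactory bulb. Removing the bulb severs these axons and takes away their target, after which mature neurons die and are replaced from basal progenitors: dormant horizontal basal cells and dividing globose basal cells. Sustentacular cells and Bowman glands support the epithelium, ensheathing cells wrap the axon bundles, and macrophages clear the debris of dead neurons and release growth factors and chemokines.

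The tissue label was checked against defining markers. Omp, the marker of mature olfactory neurons, had signals of 14449, 16243 and 16024 on the Lip-C sham arrays, and Cyp2g1, a cytochrome of sustentacular cells, had 14548, 14650.0 and 14210.0. Of 5 bulb and brain markers (Gad1, Gad2, Th, Slc17a7, Mog) 3 did not exceed the 40th percentile of signal on any array, and none did so on all 12; their summed signal was 149 to 173 in Lip-C sham and 143 to 176 in Lip-C OBX mice. A wider list of bulb and brain genes, given below, had 15 measured members. Their summed signal was 18442 to 20567 in Lip-C sham and 18022 to 18752 in Lip-C OBX mice. Only 1 of the 15 lay under the percentile in both Lip-C groups, and the part of carried-over bulb tissue was not tested. Macrophage transcripts were still measurable after clodronate. Csf1r, the receptor that macrophages need to survive, was at 1474, 1209.8 and 1309.8 in Lip-C sham mice and at 2231, 2589 and 2328 in Lip-O sham mice, which do not overlap. For Adgre1, which encodes the F4/80 antigen, the ranges overlapped (254, 194 and 224 against 249.7, 233 and 298). Median signals of the 12 arrays ran from 117.4 to 134.1. In a principal component analysis of the 6 Lip-C arrays, the component with 55.6% of the variance placed the sham arrays at -17.2, -24.7 and -23.9 and the OBX arrays at 31.5, 27.1 and 7.20. Lip-C OBX replicate 3 therefore lay nearest to the sham arrays.

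In Lip-C mice, OBX was followed by a fall of neuronal genes and a rise of genes of macrophages, horizontal basal cells, connective tissue and cartilage. Of 13628 genes tested, 2615 (19.2%) passed an adjusted p of 0.05 in limma, an empirical Bayes linear model: 1407 (10.3%) were higher and 1208 (8.86%) lower after OBX. The groups did not overlap for 40.2% of all genes and for 98.6% of those called. Where groups of called genes are said below not to overlap, this therefore adds little to the call. Log2 changes are given ± SE of the model, with n = 3 arrays in each group, and signals are single arrays in the order of replicates 1, 2 and 3. The median size of the called changes was 0.52 on the log2 scale, 107 genes rose and 87 fell by more than 2-fold, and the median of all genes was 0.04. The balance of directions depended on scaling: 53.8% of calls were higher with the deposited scaling, 49.7% with quantile normalization (1243 higher, 1256 lower) and 31.9% with centring on each array's median (776 higher, 1657 lower).

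The number of calls also depended on single arrays. It was 838 without Lip-C OBX replicate 1, 1042 without Lip-C OBX replicate 2 and 3030 without Lip-C OBX replicate 3, which held 2282 of the 2615. It was 1935, 1052 and 1215 without Lip-C sham replicates 1, 2 and 3. Each of these fits leaves 2 arrays in a group, and all 2615 genes kept their sign in each of them. With no filter on dim probe sets 1736 genes were called (892 higher, 844 lower). Below, counts of list members from these 6 fits are given in that order, OBX replicates 1, 2 and 3 and then sham replicates 1, 2 and 3. Every count of called list members stands beside 10.3% of all genes called higher and 8.86% called lower in Lip-C mice. In Lip-O mice these shares were 10.7% and 8.89%.

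Among genes whose groups both had a mean signal above 71.7, the mean 40th percentile of the arrays, the largest rises were in cartilage, bone and matrix genes. Col10a1, the collagen of hypertrophic cartilage, had signals of 80.5, 113 and 55.2 in sham mice and 1693, 1289 and 227 after OBX (log2 change 3.09 ± 0.76, adjusted p = 0.0216). Dmp1, a matrix protein of osteocytes, was at 117, 210.2 and 92.8 in sham mice and 828, 2169 and 638 after OBX (2.84 ± 0.68, adjusted p = 0.0199). Both rose on all 3 OBX arrays, least in replicate 3. Next came Col2a1, the main collagen of cartilage (2.34), Acan, its chief proteoglycan (2.04), Col1a1, the main collagen of bone and skin (2.03), Serpinh1, the collagen chaperone HSP47 (1.65), Col9a3 (1.62) and Comp, a cartilage matrix protein (1.48). The others of the 12 largest were the orphan nuclear receptors Nr4a3 (1.80) and Nr4a2 (1.57), the galectin Lgals1 (1.55) and Cd68 (1.46), a glycoprotein of phagocyte lysosomes. Col10a1 lost the call without Lip-C OBX replicate 1 or 2 or Lip-C sham replicate 2 or 3, where the adjusted p reached 0.0859. Dmp1 and Acan lost the call without Lip-C OBX replicate 1 or 2 or Lip-C sham replicate 3, where the adjusted p reached 0.075. Col2a1 lost the call without Lip-C OBX replicate 1 or 2 or Lip-C sham replicate 1, 2 or 3, where the adjusted p reached 0.106. Col1a1 lost the call without Lip-C OBX replicate 1 or 2 or Lip-C sham replicate 1, 2 or 3 or Lip-O OBX replicate 1, where the adjusted p reached 0.129. Serpinh1 lost the call without Lip-C OBX replicate 1 or 2 or Lip-C sham replicate 2, where the adjusted p reached 0.0694. Comp lost the call without Lip-C OBX replicate 1 or 2 or Lip-C sham replicate 1, 2 or 3 or Lip-O OBX replicate 1 or 3 or Lip-O sham replicate 2 or 3, where the adjusted p reached 0.164. Col2a1, Col1a1 and Comp each missed the threshold in at least 1 of the settings with the probe sets averaged, with median centring, with no filter on dim probe sets, with a pseudocount of 1, with quantile normalization and without moderation of the variance (highest limma adjusted p = 0.0918).

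The largest falls included several genes of neurons. Slc23a3, which belongs to the ascorbate transporter family, was at 336, 257 and 305 in sham mice and 97.0, 24.3 and 136 after OBX (log2 change -1.83 ± 0.40, adjusted p = 0.0147). Scgn, the calcium-binding protein secretagogin, was at 1098, 1345 and 1344 in sham mice and 326, 336 and 617 after OBX (-1.59 ± 0.23, adjusted p = 0.00469). On every OBX array these were below the lowest sham array. Brinp2, a gene of the nervous system, fell by 1.61 and Slc1a2, a glutamate transporter, by 1.57 on the log2 scale. Rfx4, a transcription factor of the RFX family, changed by -1.47, Olfr976, an odorant receptor, by -1.43, and Gadl1, an amino acid decarboxylase, by -1.43. Angptl7, an angiopoietin-like secreted protein, changed by -1.53, and in Lip-O mice by 0.31. The remaining 4 of the 12 were B830017H08Rik (-1.71), Them6 (-1.55), Elapor2 (-1.51) and Mob3b (-1.49). Slc1a2 lost the call without Lip-C OBX replicate 2, where the adjusted p reached 0.0523. Them6 lost the call without Lip-C OBX replicate 1 or 2 or Lip-C sham replicate 2, where the adjusted p reached 0.0724.

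**Figure D1:**
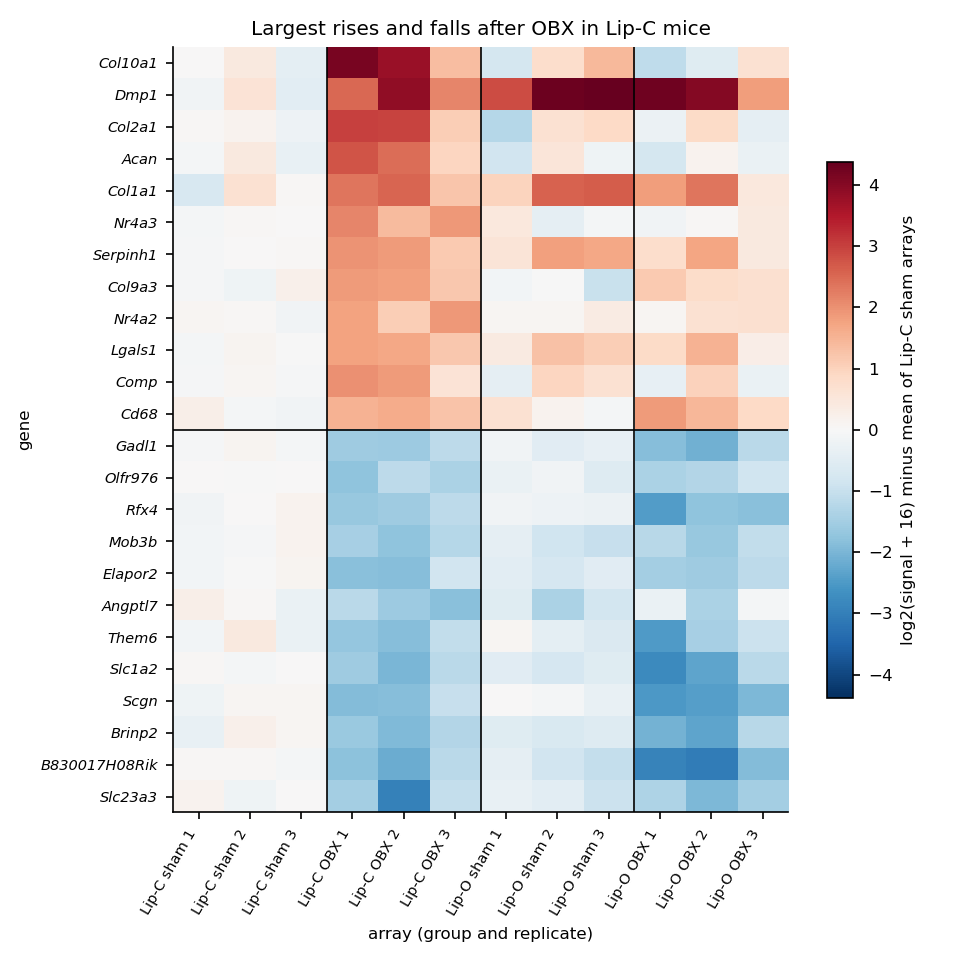
Heat map of log2(signal + 16) on each of the 12 arrays (columns, by group and replicate), minus the mean of the 3 Lip-C sham arrays, for the 12 largest rises and 12 largest falls after OBX in Lip-C mice (rows). Red is higher and blue lower; Lip-C OBX replicate 3 is paler than replicates 1 and 2 in most rows, and Dmp1 and Col1a1 are also high on Lip-O arrays.

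Where a group had a mean signal under 71.7, signals are given in place of log2 changes, here and for the genes named below. H3c11, a replication-dependent histone gene, was at 3.20, 6.60 and 5.90 in sham mice and 84.9, 83.9 and 78.5 after OBX. Itga1, the collagen-binding integrin alpha 1 subunit, was at 61.0, 38.6 and 58.7 in sham mice and 112, 136 and 109 after OBX. Calhm5, a calcium homeostasis modulator family gene, was at 68.9, 67.5 and 53.3 in sham mice and 145, 133 and 112 after OBX, and Gm11627 at 12.6, 4.40 and 20.2 in sham mice and 61.4, 78.4 and 76.0 after OBX. In the other direction, En2, the homeobox gene engrailed 2, was at 100.3, 91.6 and 110.0 in sham mice and 59.6, 46.3 and 66.0 after OBX. Skor1, a transcriptional corepressor, was at 168, 212 and 137 in sham mice and 49.5, 53.1 and 25.7 after OBX, Ybey at 109, 128 and 111 in sham mice and 61.8, 65.1 and 72.9 after OBX and Lrriq4 at 139, 117 and 105 in sham mice and 35.7, 41.4 and 55.4 after OBX. None of these 8 had overlapping groups, and 97 of the 2615 called genes had such a dim group.

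Genes of mature olfactory sensory neurons fell. Of 31 measured members of this list 15 were lower and 0 higher, with a median log2 change of -0.44, beside 8.86% of all genes called lower and an overall median of 0.04. Kirrel3, an adhesion molecule that sorts olfactory axons, had signals of 941, 1051 and 1031 in sham mice and 338, 322 and 458 after OBX (log2 change -1.41 ± 0.20, adjusted p = 0.00469). Slc24a4, the exchanger that removes calcium from the cilia and ends the odour response, was at 1043, 1024 and 1063 in sham mice and 445, 399.6 and 618 after OBX (-1.10 ± 0.16, adjusted p = 0.00469). Neither gene had overlapping groups. Pde4a, a cyclic AMP phosphodiesterase, changed by -0.81 and Reep1, which brings receptors to the cell surface, by -0.82. Omp itself was at 14449, 16243 and 16024 in sham mice and 11679, 11606 and 13706 after OBX, groups that did not overlap, but the change of -0.34 ± 0.17, adjusted p = 0.176 did not pass. Omp passed without Lip-O OBX replicate 3 (adjusted p = 0.038). In Lip-O mice 23 members were lower and 1 higher, with a median of -0.81 and an Omp change of -1.01. These Omp values come from the brighter of its 2 probe sets. The other changed by -0.61 in Lip-C mice and did not pass in a limma fit of single probe sets (adjusted p = 0.0643). Without 1 Lip-C array, limma called 8, 9, 17, 8, 8 and 8 members lower. The summed signal of the list was 195845, 207356 and 200968 on the sham and 138714, 138792 and 163517 on the OBX arrays. In whole tissue, fewer cells of a type and less RNA per cell cannot be told apart. Reep1 was not called with the probe sets averaged (limma adjusted p = 0.0937).

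Odorant receptors, of which each neuron expresses 1 allele, fell as well: 12 of 30 measured were lower and 0 higher (median -0.70), and 16 of 30 were lower in Lip-O mice (median -0.72). Olfr749 was at 912, 961 and 961 in sham mice and 274, 388 and 515 after OBX (-1.28 ± 0.18, adjusted p = 0.00469), and Olfr17, known as P2, changed by -1.06. Receptor genes form a large family with near-identical copies, so a probe set may read more than 1 of them. In 7 of the 30 both Lip-C groups lay under the 40th percentile. Leaving out 1 Lip-C array in turn gave 4, 6, 13, 10, 5 and 6 receptors lower.

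Presynaptic genes, whose products load and release synaptic vesicles at the axon terminals in the bulb, had the largest share of falls among the neuronal lists: 14 of 21 were lower and 0 higher (median -0.63). Sv2b, a synaptic vesicle glycoprotein, was at 1306, 1362 and 1459 in sham mice and 506, 498 and 642 after OBX (-1.31 ± 0.15, adjusted p = 0.00445). Syp, the vesicle membrane protein synaptophysin, was at 2485, 2766 and 2598 in sham mice and 1161, 1274 and 1584 after OBX (-0.97 ± 0.16, adjusted p = 0.00549). Sv2a changed by -0.88 and Syt4, a synaptotagmin, by -0.84. The groups of all 4 genes were apart. In Lip-O mice 10 of the 21 were lower and 1 higher, with a median of -0.49, and the values were -1.23 for Sv2b, -0.99 for Syp, -0.21 for Sv2a and -0.90 for Syt4. With 1 Lip-C array left out there were 6, 7, 16, 13, 7 and 7 members lower.

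Of 28 genes of axon adhesion and guidance, 7 were lower and 1 higher (median -0.24). Besides Kirrel3 (-1.41), these included the ephrins Efna5 and Efna3, membrane-bound ligands that repel or attract growing axons. Efna5 was at 3638, 3700.3 and 3622 in sham mice and 1781, 1748 and 1949.6 after OBX (-0.996 ± 0.12, adjusted p = 0.00445) and Efna3 at 4431, 4569 and 4336 in sham mice and 1634, 1771 and 2548 after OBX (-1.18 ± 0.18, adjusted p = 0.00473). The contactin Cntn4 changed by -0.59. The member that rose was another contactin, Cntn2, with signals of 11.7, 56.1 and 9.50 in sham mice and 72.1, 65.6 and 87.9 after OBX, a sham mean under and an OBX mean just above 71.7. The fits without 1 Lip-C array called 3, 3, 9, 6, 3 and 3 members lower. Cntn4 lost the call without Lip-C OBX replicate 1 or 2 or Lip-C sham replicate 2 or 3, where the adjusted p reached 0.0729. Cntn2 lost the call without Lip-C OBX replicate 1, 2 or 3 or Lip-C sham replicate 1 or 3, where the adjusted p reached 0.088. Cntn2 was not called with the 6 Lip-C arrays alone and without moderation of the variance (highest limma adjusted p = 0.0667).

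Genes of immature olfactory neurons moved in both directions, with 2 of 27 higher, 5 lower and a median of 0.15. Among all genes 10.3% were called higher and 8.86% lower, so the count of higher members did not exceed the share over all genes. Emx2, a homeobox factor needed for receptor expression, was at 2086, 2133 and 2348 in sham mice and 1091, 1163 and 1622 after OBX (-0.77 ± 0.14, adjusted p = 0.00811). Gnas, a stimulatory G protein alpha subunit, rose by 0.49 (adjusted p = 0.00737), and Cd24a, a surface glycoprotein of young neurons, by 0.57 (adjusted p = 0.029). Tubb3, a neuronal tubulin, fell by 0.61 on the log2 scale, and Dcx, the microtubule-binding doublecortin, by 0.38. Ebf3 changed by -0.41 and Trib3, a stress-induced pseudokinase, by -0.51. Gap43, the growth cone protein that marks immature neurons, was at 3166, 4167 and 3104 in sham mice and 4171, 5074 and 4812 after OBX and did not pass (0.44 ± 0.19, adjusted p = 0.128); it passed in the fit with the replicate number as a block (adjusted p = 0.0498). Cd24a lost the call without Lip-C OBX replicate 1 or 2 or Lip-C sham replicate 2 or 3, where the adjusted p reached 0.109. Tubb3 lost the call without Lip-C OBX replicate 1 or 2 or Lip-C sham replicate 1, 2 or 3, where the adjusted p reached 0.0999. Dcx lost the call without Lip-C OBX replicate 1 or Lip-C sham replicate 2, where the adjusted p reached 0.0816. Ebf3 lost the call without Lip-C OBX replicate 1 or 2 or Lip-C sham replicate 2, where the adjusted p reached 0.0707. Trib3 lost the call without Lip-C OBX replicate 1, 2 or 3 or Lip-C sham replicate 1, 2 or 3 or Lip-O OBX replicate 1 or 2 or Lip-O sham replicate 2 or 3, where the adjusted p reached 0.174. Gnas, Cd24a, Tubb3, Dcx, Ebf3 and Trib3 each missed the threshold in at least 1 of the settings with the probe sets averaged, with median centring, with no filter on dim probe sets, with the 6 Lip-C arrays alone, with a pseudocount of 1, with quantile normalization, with a replicate block and without moderation of the variance (highest limma adjusted p = 0.122).

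**Figure D2:**
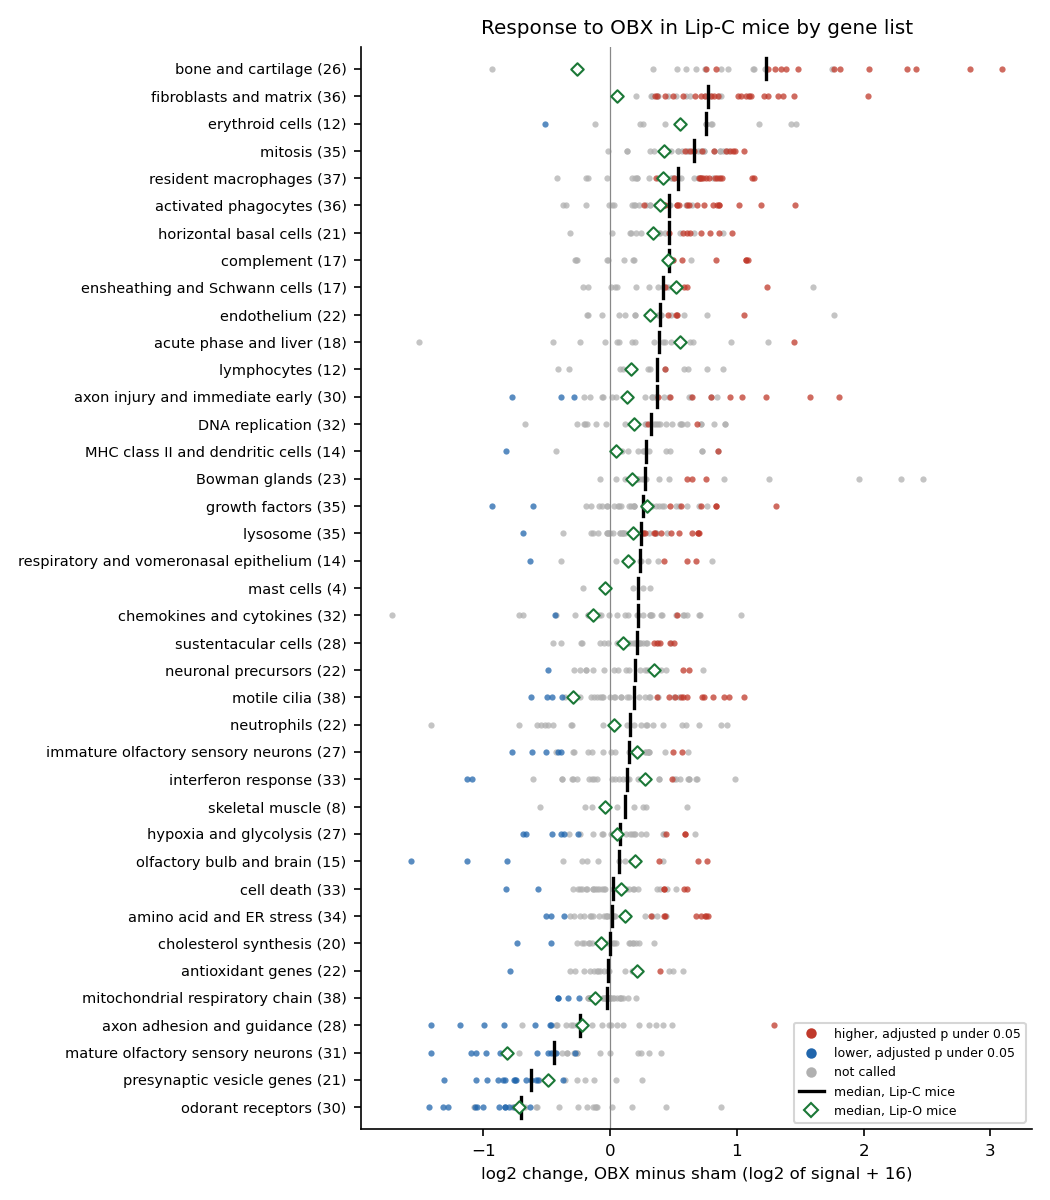
Log2 change after OBX in Lip-C mice (x axis, log2 of signal + 16) of each measured member of the 39 gene lists (rows, number measured in brackets); red points rose, blue points fell and grey points were not called, black bars are list medians and green diamonds the medians in Lip-O mice. Bone and cartilage (median 1.23) and matrix (0.77) lie at the top and odorant receptors (-0.70) at the bottom, and the Lip-O medians of the first pair are -0.26 and 0.05.

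Macrophage genes rose after OBX in clodronate-treated mice. Of 37 genes of resident macrophages 15 were higher and 0 lower (median 0.54; 7 higher and 0 lower with median centring), beside 10.3% of all genes called higher; in Lip-O mice 4 were higher (median 0.42). Aif1, which encodes the cytoskeletal protein Iba1, had signals of 120.5, 102 and 109 in sham mice and 286, 307 and 203 after OBX (1.13 ± 0.20, adjusted p = 0.00667). Ms4a7, a membrane protein of macrophages, was at 345, 328 and 310.5 in sham mice and 722, 832 and 654 after OBX (1.12 ± 0.18, adjusted p = 0.0055). Csf1r was at 1474, 1209.8 and 1309.8 in sham mice and 2381, 2657 and 1794 after OBX (0.75 ± 0.18, adjusted p = 0.018), against 2231, 2589 and 2328 in Lip-O sham and 3413, 2754 and 2176 in Lip-O OBX mice. Irf8, a transcription factor of the lineage, rose by 0.88. Adgre1 (0.49 ± 0.19, adjusted p = 0.0972) did not pass. The summed signal of the list was 23804, 15517 and 19847 in Lip-C sham and 33128, 29658 and 24169 in Lip-C OBX mice. It was 28002.6, 21159.5 and 16885.9 in Lip-O sham and 36269.9, 26566 and 22713 in Lip-O OBX mice. In this sum the Lip-C sham and Lip-O sham arrays overlapped, unlike for Csf1r. Without 1 Lip-C array, limma called 2, 4, 15, 10, 3 and 5 members higher. Csf1r lost the call without Lip-C OBX replicate 1 or 2 or Lip-C sham replicate 2 or 3, where the adjusted p reached 0.0700. Irf8 lost the call without Lip-C OBX replicate 1 or 2 or Lip-C sham replicate 2, where the adjusted p reached 0.0694. Csf1r was not called with the probe sets averaged (limma adjusted p = 0.0732).

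Genes of activated phagocytes rose in 17 of 36 cases and fell in 0 (median 0.47; 8 higher and 1 lower with median centring; 13 higher in Lip-O mice). Cd68 was at 419, 326 and 307 in sham mice and 1018, 1102 and 851 after OBX (1.46 ± 0.25, adjusted p = 0.0069). Stab1, a scavenger receptor, was at 178, 142 and 169.6 in sham mice and 315, 359.9 and 256 after OBX (0.86 ± 0.13, adjusted p = 0.00523). Itgav, an integrin subunit that binds dying cells, rose by 0.61 and Mfge8, which bridges phosphatidylserine to that integrin, by 0.53. Msr1, scavenger receptor A, was at 58.9, 53.5 and 38.1 in sham mice and 66.9, 82.2 and 75.4 after OBX and did not pass (adjusted p = 0.109). Of 17 complement genes 6 were higher and 0 lower (median 0.46; 3 higher and 0 lower with median centring; 7 higher in Lip-O mice). C1qc, a chain of the C1q complex that tags debris, was at 507, 466 and 439 in sham mice and 1080.2, 1127 and 865 after OBX (1.09 ± 0.23, adjusted p = 0.0122), and the other chains, C1qa and C1qb, changed by 1.07 and 1.07. Leaving out 1 Lip-C array in turn gave 6, 6, 16, 11, 8 and 8 phagocyte genes and 1, 1, 6, 4, 1 and 1 complement genes higher. C1qa and C1qb lost the call without Lip-C OBX replicate 1 or 2 or Lip-C sham replicate 2 or 3, where the adjusted p reached 0.0901. C1qa was not called without moderation of the variance (limma adjusted p = 0.0527).

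Lysosomal genes were higher in 11 of 35 cases and lower in 1 (median 0.25), but only 3 higher and 2 lower with median centring. Ctsd, the protease cathepsin D, was at 4941, 4114 and 4490.5 in sham mice and 6745, 6840.3 and 6147 after OBX (0.54 ± 0.10, adjusted p = 0.00931). Ctsz, another cathepsin, rose by 0.69 and Hexa, a subunit of hexosaminidase, by 0.70. The member that fell was Neu1, the lysosomal sialidase, with 1077, 1267 and 1143 in sham mice and 735, 647 and 763 after OBX (-0.69 ± 0.10, adjusted p = 0.00469). With 1 Lip-C array left out there were 3, 4, 12, 8, 4 and 5 members higher. Many lysosomal promoters carry an E-box bound by the factor TFEB. Its letters GTCACGTG were sought on both strands of 300 bases around each start site. Here and below, a gene was counted if any of its promoters held a match. This was so for 8 of 30 genes of this list with a promoter. It was so for 4.48% of the 10966 genes tested that had a promoter. Counted promoter by promoter, which is another measure, the share was 2.25% of all 32851. Only Ctsd of those 8 genes was among the called, and its stretch with a pair of matches in capitals is shown for that reason (RefSeq, GRCm38.p6).

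Ctsd promoter, chr7:142387906-142388077 (- strand): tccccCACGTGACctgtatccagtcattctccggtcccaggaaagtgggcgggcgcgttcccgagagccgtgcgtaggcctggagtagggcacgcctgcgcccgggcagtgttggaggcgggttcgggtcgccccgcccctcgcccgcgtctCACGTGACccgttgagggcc

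Few genes of other leucocytes passed. Of 22 neutrophil genes 0 passed in either direction (median 0.16), and S100a8, an abundant granulocyte protein, was at 14797, 7754 and 13809 in sham mice and 14739, 14976 and 9483 after OBX. Of 32 chemokine and cytokine genes 1 was higher and 1 lower (median 0.22): Mif, macrophage migration inhibitory factor, rose by 0.53, and Il18, a cytokine of the interleukin-1 family, fell by 0.44. Ccl2, the chief monocyte chemoattractant, was at 90.4, 23.7 and 33.6 in sham mice and 79.0, 18.2 and 56.8 after OBX, both groups overlapping. Of 14 genes of class II antigen presentation and dendritic cells, Cd209a was higher and Zbtb46, a transcription factor of classical dendritic cells and endothelium, lower (-0.82 ± 0.17, adjusted p = 0.0115). Cd209a was at 26.0, 55.7 and 52.3 in sham mice and 82.9, 116 and 76.6 after OBX. Thy1 was the 1 of 12 lymphocyte genes that passed (0.44, adjusted p = 0.041), 0 of 4 mast cell genes passed, and Timp1, an inhibitor of metalloproteinases, was the 1 of 18 acute phase genes (1.45, adjusted p = 0.0428). Cd209a lost the call without Lip-C OBX replicate 1 or 2 or Lip-C sham replicate 1, where the adjusted p reached 0.102. Thy1 lost the call without Lip-C OBX replicate 1 or 2 or Lip-C sham replicate 1 or 2 or Lip-O OBX replicate 2 or Lip-O sham replicate 2 or 3, where the adjusted p reached 0.137. Timp1 lost the call without Lip-C OBX replicate 1 or 2 or Lip-C sham replicate 1, 2 or 3 or Lip-O OBX replicate 2, where the adjusted p reached 0.132. Cd209a, Thy1 and Timp1 each missed the threshold in at least 1 of the settings with median centring, with no filter on dim probe sets, with the 6 Lip-C arrays alone, with quantile normalization and without moderation of the variance (highest limma adjusted p = 0.0895).

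Among interferon-induced genes 1 of 33 was higher and 2 were lower (median 0.13). Ifit2, an antiviral protein, was at 459, 402 and 595 in sham mice and 239, 168 and 255 after OBX (-1.09 ± 0.19, adjusted p = 0.00731), and its relative Ifit1 changed by -1.13. Ifi35 rose by 0.49. In Lip-O mice Ifit2 changed by -0.72. Ifit1 lost the call without Lip-C OBX replicate 1, 2 or 3 or Lip-C sham replicate 1 or 3 or Lip-O sham replicate 2, where the adjusted p reached 0.125. Ifi35 lost the call without Lip-C OBX replicate 1 or 2 or Lip-C sham replicate 2 or 3, where the adjusted p reached 0.116. Ifit1 and Ifi35 each missed the threshold in at least 1 of the settings with the probe sets averaged, with median centring, with no filter on dim probe sets, with the 6 Lip-C arrays alone and without moderation of the variance (highest limma adjusted p = 0.0914).

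Genes of horizontal basal cells, the reserve stem cells of the epithelium, rose in 9 of 21 cases and fell in 0 (median 0.46; 6 higher and 1 lower with median centring; 5 higher in Lip-O mice). Krt5, a keratin that marks these cells, was at 558, 570.5 and 668 in sham mice and 1118, 1280.0 and 793 after OBX (0.79 ± 0.16, adjusted p = 0.0111). Its partner keratin Krt14 was at 256, 190.0 and 178 in sham mice and 485, 423 and 348 after OBX (0.96 ± 0.17, adjusted p = 0.00667). Lamb3, a laminin chain of the basement membrane, rose by 0.72 and Itga6, which anchors basal cells to laminin, by 0.58. None of the 4 had overlapping groups, as was the case for 98.6% of called genes. The fits without 1 Lip-C array called 4, 5, 11, 9, 3 and 6 members higher. Itga6 lost the call without Lip-C OBX replicate 1 or Lip-C sham replicate 2, where the adjusted p reached 0.0562.

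Mitotic genes had positive changes in 34 of 35 cases, and 10 were called higher and 0 lower (median 0.66; in Lip-O mice 0 higher, 1 lower and a median of 0.43). Top2a, a topoisomerase of dividing cells, was at 332, 377 and 354 in sham mice and 862, 851 and 484 after OBX (0.97 ± 0.27, adjusted p = 0.0318). Ube2c, which drives the destruction of cyclins, was at 284, 250.1 and 208 in sham mice and 463, 763 and 418 after OBX (1.06 ± 0.26, adjusted p = 0.0224). Mki67, the Ki-67 antigen, was at 794, 704 and 580.3 in sham mice and 1168, 1611 and 974 after OBX and did not pass (0.82 ± 0.32, adjusted p = 0.0953), although it passed with the 6 Lip-C arrays alone (adjusted p = 0.0438) and with a replicate block (0.0388). Lip-C OBX replicate 3 had the lowest signal of its group for all of these genes. Without 1 Lip-C array, limma called 0, 0, 21, 2, 0 and 0 members higher, so the count rests on which arrays are kept. It was 17 and 18 without Lip-O OBX replicates 2 and 3. Of 32 DNA replication genes 2 were higher and 0 lower (median 0.32): Pcna, the polymerase clamp (0.30, adjusted p = 0.0411), and Pola1, a polymerase subunit (0.68, adjusted p = 0.0434). Top2a lost the call without Lip-C OBX replicate 1 or 2 or Lip-C sham replicate 1, 2 or 3, where the adjusted p reached 0.117. Ube2c lost the call without Lip-C OBX replicate 1 or 2 or Lip-C sham replicate 2 or 3, where the adjusted p reached 0.0775. Pcna lost the call without Lip-C OBX replicate 1 or 2 or Lip-C sham replicate 1, 2 or 3 or Lip-O sham replicate 1, 2 or 3, where the adjusted p reached 0.146. Pola1 lost the call without Lip-C OBX replicate 1 or 2 or Lip-C sham replicate 2 or 3 or Lip-O OBX replicate 3 or Lip-O sham replicate 3, where the adjusted p reached 0.142. Top2a, Pcna and Pola1 each missed the threshold in at least 1 of the settings with the probe sets averaged, with median centring, with no filter on dim probe sets, with the 6 Lip-C arrays alone, with quantile normalization and without moderation of the variance (highest limma adjusted p = 0.121).

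Promoters of mitotic genes often hold CCAAT boxes and a cell cycle genes homology region. CCAAT, on either strand, occurred for 23 of 30 mitosis genes with a promoter and for 42.4% of such genes tested. Counted promoter by promoter, it occurred in 37.4% of all promoters. TTTGAAA occurred in 9 of 30, 5.48% and 6.50%. Cdk1, the kinase that starts mitosis, rose by 0.91 (limma adjusted p = 0.0341) and is shown as a called gene with both; capitals mark the matches, those for CCAAT being on the opposite strand. Cdk1 lost the call without Lip-C OBX replicate 1 or 2 or Lip-C sham replicate 1, 2 or 3, where the adjusted p reached 0.118, with no filter on dim probe sets and without moderation of the variance (highest limma adjusted p = 0.0658).

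Cdk1 promoter, chr10:69352913-69353132 (- strand): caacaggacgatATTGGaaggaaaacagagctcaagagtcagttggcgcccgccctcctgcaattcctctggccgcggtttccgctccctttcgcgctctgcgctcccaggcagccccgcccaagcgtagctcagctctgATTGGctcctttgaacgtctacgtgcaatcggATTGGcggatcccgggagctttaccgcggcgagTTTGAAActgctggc

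Neuronal precursor genes were higher in 3 of 22 cases and lower in 1 (median 0.19; 6 higher in Lip-O mice). Sox4, a factor of young neurons, was at 3275, 2683 and 2712 in sham mice and 4216, 4127 and 4575 after OBX (0.58 ± 0.12, adjusted p = 0.0112), Cdkn1c, a cell cycle inhibitor, rose by 0.62 and the Notch ligand Dll1 by 0.35. The RNA-binding protein gene Elavl3 fell by 0.49 on the log2 scale. Neurog1, a proneural factor, was at 94.8, 102 and 73.0 in sham mice and 124, 134 and 112 after OBX (0.40 ± 0.15, adjusted p = 0.0784) and Neurod1, which follows it, at 395, 239 and 218 in sham mice and 274, 342 and 254 after OBX (0.06 ± 0.19, adjusted p = 0.837); neither passed, and Neurog1 passed with a replicate block (adjusted p = 0.0245). Cdkn1c lost the call without Lip-C OBX replicate 1, where the adjusted p reached 0.0643. Dll1 lost the call without Lip-C OBX replicate 1, 2 or 3 or Lip-C sham replicate 2 or 3, where the adjusted p reached 0.106. Elavl3 lost the call without Lip-C OBX replicate 1 or 2 or Lip-C sham replicate 1, 2 or 3 or Lip-O OBX replicate 3 or Lip-O sham replicate 1, 2 or 3, where the adjusted p reached 0.15. Dll1 and Elavl3 each missed the threshold in at least 1 of the settings with median centring, with no filter on dim probe sets, with the 6 Lip-C arrays alone, with quantile normalization and without moderation of the variance (highest limma adjusted p = 0.129).

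Some genes of the supporting epithelium rose. Their counts stand beside 10.3% of all genes called higher and 8.86% called lower, and that of Bowman glands lay near this share. Of 28 sustentacular genes 5 were higher and 0 lower (median 0.21; 2 higher and 0 lower with median centring). Cyp1a2, a cytochrome that metabolises foreign compounds, was at 7426, 7763 and 8497 in sham mice and 10500.0, 11331 and 11051 after OBX (0.47 ± 0.08, adjusted p = 0.0055), and Cyp2g1 at 14548, 14650.0 and 14210.0 in sham mice and 16205, 17388 and 16145 after OBX (0.20 ± 0.08, adjusted p = 0.0951). Ephx1, an epoxide hydrolase, rose by 0.40, and Hes1 (0.50) and Notch2 (0.37) are parts of the Notch pathway. Of 23 Bowman gland genes 3 were higher and 0 lower (median 0.28): Aqp5, a water channel, at 4181, 3972 and 4292 in sham mice and 7263, 5916 and 6354 after OBX (0.64 ± 0.10, adjusted p = 0.0048), Sox9 (0.76) and Tspan8 (0.61). Sox9 is also a factor of cartilage and counted there too. With 1 Lip-C array left out, 2, 1, 4, 4, 2 and 2 sustentacular genes were higher, and 1 was lower without Lip-C OBX replicate 3. For Bowman glands 1, 3, 3, 4, 1 and 3 were higher. Of 14 genes of respiratory and vomeronasal epithelium, 3 were higher, Agr2 (0.61), Spdef (0.68) and Gnai2 (0.42), and 1 lower, the G protein subunit gene Gnao1 (-0.63), with a median of 0.24 and with 0 higher and 1 lower with median centring. Ephx1 lost the call without Lip-C OBX replicate 2, where the adjusted p reached 0.0573. Hes1 and Gnai2 lost the call without Lip-C OBX replicate 1 or 2 or Lip-C sham replicate 2 or 3, where the adjusted p reached 0.107. Notch2 lost the call without Lip-C OBX replicate 1 or 2 or Lip-C sham replicate 1, 2 or 3, where the adjusted p reached 0.0964. Sox9 and Tspan8 lost the call without Lip-C OBX replicate 1 or Lip-C sham replicate 2, where the adjusted p reached 0.0598. Agr2 lost the call without Lip-C OBX replicate 1 or Lip-C sham replicate 1, 2 or 3, where the adjusted p reached 0.0959. Spdef lost the call without Lip-C OBX replicate 1, 2 or 3 or Lip-C sham replicate 1, 2 or 3 or Lip-O OBX replicate 3 or Lip-O sham replicate 3, where the adjusted p reached 0.16. Hes1, Notch2, Agr2, Spdef, Gnai2 and Gnao1 each missed the threshold in at least 1 of the settings with the probe sets averaged, with median centring, with no filter on dim probe sets, with the 6 Lip-C arrays alone, with a pseudocount of 1, with quantile normalization and without moderation of the variance (highest limma adjusted p = 0.787).

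After OBX in Lip-C mice 12 of 38 genes of motile cilia were higher and 4 lower (median 0.19; 8 higher and 5 lower with median centring), whereas in Lip-O mice 0 were higher and 19 lower (median -0.30). For 35 of the 38 the response lay higher in Lip-C than in Lip-O mice. The difference had an unadjusted p under 0.05 in limma for 30 of the 38, beside 17.6% of all genes, and passed after adjustment for 0. Wdr78, a component of axonemal dynein, was at 296, 283 and 263 in sham mice and 652, 563 and 589 after OBX (1.05 ± 0.17, adjusted p = 0.00526), and in Lip-O mice its change was -0.22. Cfap45, a filament protein inside ciliary microtubules, was at 195, 224 and 170.2 in sham mice and 358, 352 and 351 after OBX (0.81 ± 0.12, adjusted p = 0.00469), against -0.01 in Lip-O mice. Cfap52 rose by 0.90 and Lrrc23, a radial spoke protein, by 0.60. Kif9, a kinesin, was at 1327, 1672 and 1506 in sham mice and 896, 970.2 and 1038 after OBX (-0.62 ± 0.12, adjusted p = 0.00998), against -1.09 in Lip-O mice. Rsph9, a radial spoke head protein, changed by -0.45, Ak8 by -0.50 and Ccdc40 by -0.38. Foxj1, the master factor of motile cilia, was at 1131, 938 and 983 in sham mice and 1258, 928 and 1178 after OBX and did not pass (0.13 ± 0.15, adjusted p = 0.566). Summed signals were 54702, 52184 and 49563 in Lip-C sham, 58097, 53094 and 52520.5 in Lip-C OBX, 63579, 62929 and 60052 in Lip-O sham and 43629, 48305 and 49431 in Lip-O OBX mice. The Lip-O OBX arrays were thus the lowest and the Lip-O sham arrays the highest. The sham groups of Lip-C and Lip-O mice did not overlap, so they differed without OBX as well. Leaving out 1 Lip-C array in turn gave 3, 5, 14, 10, 6 and 4 members higher. Lrrc23 lost the call without Lip-C OBX replicate 1 or 2, where the adjusted p reached 0.0625. Ak8 lost the call without Lip-C OBX replicate 1 or 2 or Lip-C sham replicate 1 or 2, where the adjusted p reached 0.0812. Ccdc40 lost the call without Lip-C OBX replicate 1 or 2 or Lip-C sham replicate 1, 2 or 3, where the adjusted p reached 0.121. Ccdc40 was not called with no filter on dim probe sets and with the 6 Lip-C arrays alone (highest limma adjusted p = 0.0702).

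Matrix genes rose together: all 36 measured had positive changes, 22 were higher and 0 lower (median 0.77), while in Lip-O mice 4 were higher and 1 lower (median 0.05). Fbln1, an elastic fibre protein, was at 231, 224 and 227 in sham mice and 491, 657 and 346 after OBX (1.03 ± 0.18, adjusted p = 0.00702). Mfap5, a microfibril protein, was at 113, 98.8 and 120.4 in sham mice and 207, 265 and 174 after OBX (0.85 ± 0.17, adjusted p = 0.00981). Col12a1 rose by 0.67. Col1a1 was at 1308, 3379 and 2182 in sham mice and 10888, 12592 and 4909 after OBX (2.03 ± 0.60, adjusted p = 0.0402), and at 4190.1, 12874 and 13406 in Lip-O sham and 7649, 10923 and 2942 in Lip-O OBX mice, so its Lip-C OBX signals lay within the range of the Lip-O arrays. Postn, a matrix protein of periosteum, rose by 0.71. With 1 Lip-C array left out there were 3, 3, 29, 6, 5 and 4 members higher. Summed signals were 51109, 58616 and 54534 in Lip-C sham, 114599, 116291 and 75489.8 in Lip-C OBX, 64659, 101998 and 101422 in Lip-O sham and 87755, 102596 and 64115 in Lip-O OBX mice. Col1a1 lost the call without Lip-C OBX replicate 1 or 2 or Lip-C sham replicate 1, 2 or 3 or Lip-O OBX replicate 1, where the adjusted p reached 0.129. Postn lost the call without Lip-C OBX replicate 1 or 2 or Lip-C sham replicate 3, where the adjusted p reached 0.0713. Col12a1 and Col1a1 each missed the threshold in at least 1 of the settings with the probe sets averaged, with no filter on dim probe sets and without moderation of the variance (highest limma adjusted p = 0.0801).

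Bone and cartilage genes had the largest median change of the lists, 1.23: 14 of 26 were higher and 0 lower, against 2 higher, 0 lower and a median of -0.26 in Lip-O mice. Chad, a cartilage protein that binds collagen, was at 324, 359.8 and 388 in sham mice and 1137, 1003 and 567 after OBX (1.24 ± 0.21, adjusted p = 0.00585). Matn3, the cartilage protein matrilin 3, was at 22.5, 26.5 and 43.5 in sham mice and 256, 175 and 65.3 after OBX (adjusted p = 0.0157). Acan was at 159.6, 233 and 131 in sham mice and 1228, 996 and 342 after OBX (2.04 ± 0.48, adjusted p = 0.0179), and at 87.0, 253 and 148 in Lip-O sham and 92.8, 191 and 136 in Lip-O OBX mice, below all Lip-C OBX arrays. Dmp1 followed another order: 117, 210.2 and 92.8 in Lip-C sham, 828, 2169 and 638 in Lip-C OBX, 1061, 2879 and 3065 in Lip-O sham and 2818, 2369.6 and 507 in Lip-O OBX mice. Acan was thus highest in Lip-C OBX mice and Dmp1 lowest in Lip-C sham mice. Summed over the list, signals were 12931, 11731 and 11110.0 in Lip-C sham, 30054, 32267 and 16454 in Lip-C OBX, 25339, 29464 and 27321 in Lip-O sham and 27942, 27534 and 17013 in Lip-O OBX mice. The fits without 1 Lip-C array called 2, 2, 19, 8, 3 and 4 members higher. Bone and cartilage lie under the dissected epithelium, all 4 bone markers (Ibsp, Dmp1, Ctsk, Acp5) were above the percentile on all 12 arrays, and the part of carried-over tissue in the matrix, bone and cartilage changes was not tested. Matn3 lost the call without Lip-C OBX replicate 1 or 2 or Lip-C sham replicate 2, where the adjusted p reached 0.0607. Acan lost the call without Lip-C OBX replicate 1 or 2 or Lip-C sham replicate 3, where the adjusted p reached 0.0737.

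**Figure D3:**
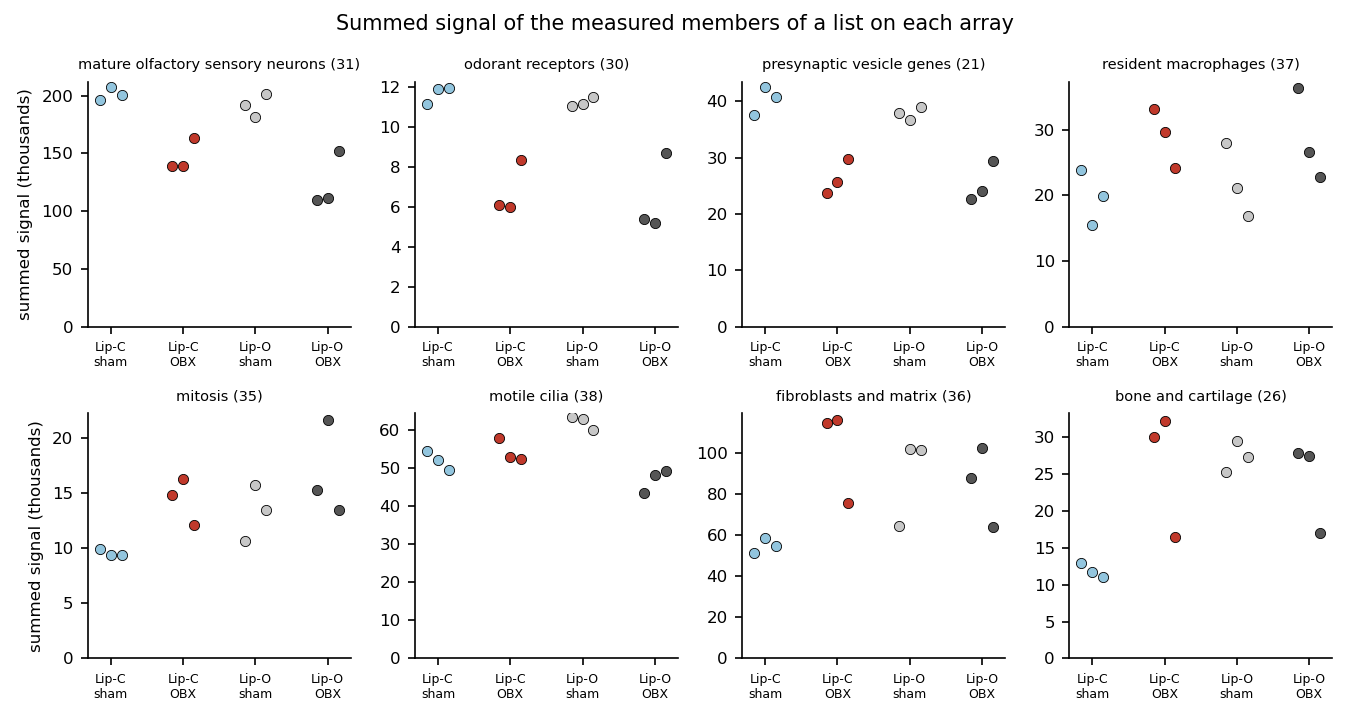
Summed signal (linear scale) of the measured members of 8 gene lists on each array; each point is 1 of 3 arrays of a group. Neuronal lists are lower on all OBX arrays than on sham arrays, bone and cartilage and matrix are lowest in Lip-C sham mice, and Lip-C OBX replicate 3 (right-hand red point) lies nearest to the sham arrays for the neuronal, macrophage, mitosis, matrix and bone lists.

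Of 30 genes induced by axon injury or as immediate early genes, 9 were higher and 3 lower (median 0.37; 4 higher and 2 lower in Lip-O mice). The orphan nuclear receptors of the NR4A family, fast-induced transcription factors, rose together. Nr4a1 was at 352, 353 and 391 in sham mice and 771, 660.0 and 732 after OBX (0.95 ± 0.10, adjusted p = 0.00343), Nr4a2 at 123, 120.0 and 99.6 in sham mice and 422, 256 and 469 after OBX and Nr4a3 at 84.3, 93.8 and 90.6 in sham mice and 443, 259.5 and 379 after OBX. None of the 3 overlapped between groups, and in Lip-O mice they changed by -0.10, 0.31 and 0.12. Hspb1, a small heat shock protein of injured neurons, rose by 0.64. Ier2, an immediate early gene, changed by -0.39 and Klf7, a factor of axon growth, by -0.28. Gal, the neuropeptide galanin, fell from signals of 85.1, 56.5 and 108 in sham mice to 31.9, 36.9 and 55.5 after OBX (adjusted p = 0.0288). Atf3, an injury-induced factor, was at 91.5, 107 and 123 in sham mice and 88.2, 126 and 151 after OBX (0.14 ± 0.32, adjusted p = 0.783) and Lif, the cytokine that signals injury in this tissue, at 51.3, 61.0 and 86.8 in sham mice and 139.8, 73.6 and 96.6 after OBX (adjusted p = 0.446); neither passed. Without 1 Lip-C array, limma called 5, 4, 9, 8, 4 and 5 members higher. Hspb1 lost the call without Lip-C OBX replicate 2 or Lip-C sham replicate 3, where the adjusted p reached 0.0573. Ier2 lost the call without Lip-C OBX replicate 1, 2 or 3 or Lip-C sham replicate 1, 2 or 3, where the adjusted p reached 0.108. Klf7 lost the call without Lip-C OBX replicate 1 or 2 or Lip-C sham replicate 2 or 3, where the adjusted p reached 0.095. Gal lost the call without Lip-C OBX replicate 1 or 2 or Lip-C sham replicate 1 or 3, where the adjusted p reached 0.109. Ier2, Klf7 and Gal each missed the threshold in at least 1 of the settings with the probe sets averaged, with no filter on dim probe sets, with the 6 Lip-C arrays alone and without moderation of the variance (highest limma adjusted p = 0.0781).

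Amino acid and endoplasmic reticulum stress genes moved in both directions: 8 of 34 were higher and 3 lower, with a median of 0.01. Among all genes 10.3% were called higher and 8.86% lower, so the count of lower members lay near the share over all genes. There were 4 higher and 4 lower with median centring, where the median was -0.07. The higher ones named here assist folding in the reticulum. Sdf2l1, part of a chaperone complex, was at 1086, 1066 and 973 in sham mice and 2131, 1656 and 1618 after OBX (0.77 ± 0.15, adjusted p = 0.0096). Pdia6, a disulphide isomerase, was at 2389, 2539 and 2286 in sham mice and 4836, 3988 and 3494 after OBX (0.76 ± 0.13, adjusted p = 0.00585). Creld2, a secreted stress protein, rose by 0.72 and Pdia4 by 0.75. The lower ones were Trib3 (-0.51), Ppp1r15a, which restores translation after stress (-0.46), and Slc7a5, an amino acid transporter (-0.36). In Lip-O mice 3 members were higher and 0 lower. Leaving out 1 Lip-C array in turn gave 2, 3, 7, 5, 4 and 3 members higher and 0, 1, 3, 1, 0 and 1 lower. The ER stress element, CCAAT and CCACG with 9 bases of any kind between them, on either strand, contains a CCAAT box and is bound by ATF6. It occurred in 0.119% of all promoters and for 0.137% of the genes tested that had a promoter. In this list it occurred for 4 of 29 such genes: Calr, Creld2, Hspa5 and Pdia6. Calr, a calcium-binding chaperone, rose by 0.33, just past the threshold (limma adjusted p = 0.0499), and lost the call without any 1 of the 6 Lip-C arrays (highest adjusted p = 0.175) or without Lip-O OBX replicate 2 or 3 or Lip-O sham replicate 1, 2 or 3; Hspa5, the chaperone BiP, was not called. The stretches of the 3 called genes are shown with the match in capitals, on the opposite strand in Creld2 and Calr. Creld2 lost the call without Lip-C OBX replicate 1, where the adjusted p reached 0.0504. Pdia4 and Ppp1r15a lost the call without Lip-C OBX replicate 1 or 2 or Lip-C sham replicate 1, 2 or 3, where the adjusted p reached 0.116. Trib3 lost the call without Lip-C OBX replicate 1, 2 or 3 or Lip-C sham replicate 1, 2 or 3 or Lip-O OBX replicate 1 or 2 or Lip-O sham replicate 2 or 3, where the adjusted p reached 0.174. Slc7a5 lost the call without Lip-C OBX replicate 1 or Lip-C sham replicate 2, where the adjusted p reached 0.0674. Pdia4, Trib3 and Ppp1r15a each missed the threshold in at least 1 of the settings with the probe sets averaged, with median centring, with no filter on dim probe sets, with the 6 Lip-C arrays alone, with a pseudocount of 1, with quantile normalization, with a replicate block and without moderation of the variance (highest limma adjusted p = 0.0801).

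Creld2 promoter, chr15:88819508-88819550 (+ strand): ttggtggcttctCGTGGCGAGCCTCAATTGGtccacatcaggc

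Calr promoter, chr8:84847063-84847105 (- strand): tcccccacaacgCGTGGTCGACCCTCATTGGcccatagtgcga

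Pdia6 promoter, chr12:17266479-17266521 (+ strand): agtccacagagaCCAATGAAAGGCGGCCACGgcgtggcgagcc

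Of 33 cell death genes 4 were higher and 2 lower, shares near the 10.3% and 8.86% of all genes (median 0.03); there were 1 higher and 5 lower with median centring, where the median was -0.06. Casp12, a caspase linked to reticulum stress, was at 115, 134 and 127 in sham mice and 219, 172 and 197 after OBX (0.58 ± 0.10, adjusted p = 0.00648). Apaf1, the core of the apoptosome, was at 954, 1067 and 1009 in sham mice and 677, 625 and 729.7 after OBX (-0.57 ± 0.09, adjusted p = 0.00526). Bcl2l11, the death-inducing protein BIM, rose by 0.43, Casp8 by 0.42 and the neurotrophin receptor gene Ngfr by 0.60, while Hrk, a neuronal BH3-only protein, changed by -0.82. Bcl2l11 lost the call without Lip-C OBX replicate 2 or Lip-C sham replicate 3, where the adjusted p reached 0.0606. Casp8 lost the call without Lip-C OBX replicate 1 or 2 or Lip-C sham replicate 2 or 3 or Lip-O OBX replicate 2 or Lip-O sham replicate 2, where the adjusted p reached 0.139. Ngfr lost the call without Lip-C OBX replicate 1 or 3 or Lip-C sham replicate 2 or 3, where the adjusted p reached 0.118. Hrk lost the call without Lip-C OBX replicate 1 or 2 or Lip-C sham replicate 2 or 3, where the adjusted p reached 0.0937. Bcl2l11, Casp8, Ngfr and Hrk each missed the threshold in at least 1 of the settings with the probe sets averaged, with median centring, with no filter on dim probe sets, with the 6 Lip-C arrays alone, with quantile normalization and without moderation of the variance (highest limma adjusted p = 0.12).

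Of 35 growth factor genes, 6 were higher and 2 lower (median 0.26; 6 and 2 in Lip-O mice), beside 10.3% and 8.86% of all genes in Lip-C mice. Wnt5a, a secreted Wnt ligand, was at 317, 339 and 301 in sham mice and 530.4, 590.2 and 488 after OBX (0.72 ± 0.13, adjusted p = 0.00707). Bmp6, of the bone morphogenetic protein family, was at 849.9, 834 and 860.5 in sham mice and 448, 370.4 and 505 after OBX (-0.93 ± 0.19, adjusted p = 0.0103). Igf1, insulin-like growth factor 1, rose by 1.31, Vegfc, which acts on lymphatic vessels, by 0.84 and Tgfb3 by 0.83; Fgf9 changed by -0.60. With 1 Lip-C array left out there were 1, 1, 5, 5, 4 and 2 members higher. Has2, which makes hyaluronan, was in no list; it was at 72.4, 59.4 and 53.9 in sham mice and 182, 161 and 134 after OBX (adjusted p = 0.00481), against 266, 205 and 174 in Lip-O sham and 123, 178 and 129 in Lip-O OBX mice. Igf1, Vegfc and Tgfb3 lost the call without Lip-C OBX replicate 1 or 2 or Lip-C sham replicate 3, where the adjusted p reached 0.0718. Fgf9 lost the call without Lip-C OBX replicate 1 or 2 or Lip-C sham replicate 1 or 2, where the adjusted p reached 0.125. Vegfc and Fgf9 each missed the threshold in at least 1 of the settings with the probe sets averaged, with no filter on dim probe sets and without moderation of the variance (highest limma adjusted p = 0.0642).

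Of 17 genes of ensheathing and Schwann cells, the glia of the olfactory nerve, 4 were higher and 0 lower (median 0.42; 7 higher in Lip-O mice). Erbb3, the neuregulin receptor of these glia, was at 2095, 1916 and 1766 in sham mice and 2572, 2574 and 2666 after OBX (0.44 ± 0.08, adjusted p = 0.0096). Frzb, a secreted Wnt inhibitor also made by cartilage, rose by 1.23, Ngfr by 0.60 and S100b by 0.59. Sox10, their defining factor, was at 538, 373 and 389 in sham mice and 700.5, 677 and 509 after OBX and did not pass (0.53 ± 0.19, adjusted p = 0.0743), but passed without Lip-C OBX replicate 3 (adjusted p = 0.038) and without Lip-C sham replicate 1 (0.0421). Of 22 endothelial genes 4 were higher and 0 lower (median 0.39; 2 higher and 0 lower with median centring), beside 10.3% of all genes called higher. Sox18, a factor of vessel growth, was at 95.4, 71.3 and 59.7 in sham mice and 174, 225 and 128 after OBX (1.05 ± 0.20, adjusted p = 0.00929), Cldn5, a tight junction protein, rose by 0.52, Mmrn2 by 0.53 and Esam by 0.46. The fits without 1 Lip-C array called 1, 2, 7, 4, 1 and 1 ensheathing and Schwann cell genes and 2, 2, 10, 6, 2 and 3 endothelial genes higher. Frzb lost the call without Lip-C OBX replicate 1 or 2 or Lip-C sham replicate 2 or 3, where the adjusted p reached 0.0759. Ngfr lost the call without Lip-C OBX replicate 1 or 3 or Lip-C sham replicate 2 or 3, where the adjusted p reached 0.118. S100b lost the call without Lip-C OBX replicate 1 or 2 or Lip-C sham replicate 1, 2 or 3, where the adjusted p reached 0.131. Mmrn2 lost the call without Lip-C OBX replicate 1 or 2 or Lip-C sham replicate 2 or 3 or Lip-O OBX replicate 1 or 2 or Lip-O sham replicate 2, where the adjusted p reached 0.164. Esam lost the call without Lip-C OBX replicate 1 or 2 or Lip-C sham replicate 2 or 3 or Lip-O OBX replicate 2 or Lip-O sham replicate 1 or 3, where the adjusted p reached 0.146. Frzb, Ngfr, S100b, Mmrn2 and Esam each missed the threshold in at least 1 of the settings with the probe sets averaged, with median centring, with no filter on dim probe sets, with the 6 Lip-C arrays alone, with a pseudocount of 1, with quantile normalization and without moderation of the variance (highest limma adjusted p = 0.0941).

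Genes listed for olfactory bulb and brain split evenly, with 3 of 15 higher and 3 lower (median 0.07, -0.01 with median centring). The higher ones were Slc1a3, a glial glutamate transporter (0.77), Meis2 (0.69) and Sp8 (0.39). The lower ones were Slc1a2 (-1.57), Eomes, a T-box factor (-1.13), and Cdhr1, a cadherin family member (-0.81). Of 12 erythroid genes 0 were higher and 1 lower, Add2, a membrane skeleton protein also found in neurons (-0.51); the list's median was 0.76. Of 8 skeletal muscle genes 0 passed (median 0.12). Sp8 lost the call without Lip-C OBX replicate 1, 2 or 3 or Lip-C sham replicate 1, 2 or 3, where the adjusted p reached 0.093. Slc1a2 lost the call without Lip-C OBX replicate 2, where the adjusted p reached 0.0523. Slc1a3, Sp8 and Add2 each missed the threshold in at least 1 of the settings with the probe sets averaged and with no filter on dim probe sets (highest limma adjusted p = 0.0864).

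Counts of the metabolic lists stand beside 10.3% of all genes called higher and 8.86% called lower. Of 27 genes of glycolysis and hypoxia 3 were higher and 6 lower (median 0.08, -0.01 with median centring). In the fits without 1 Lip-C array, 1, 2, 2, 3, 1 and 2 were higher and 2, 2, 5, 5, 2 and 2 lower. Eno2, the neuronal enolase, was at 456, 505 and 481 in sham mice and 262, 304 and 333 after OBX (-0.66 ± 0.13, adjusted p = 0.0101) and Ldha, lactate dehydrogenase A, at 3777, 3521 and 3127 in sham mice and 5814, 5262 and 4634 after OBX (0.59 ± 0.10, adjusted p = 0.0055). Ankrd37, a hypoxia-induced gene, changed by -0.69. Of 38 respiratory chain genes 0 were higher and 4 lower (median -0.03): Ndufa5 (-0.41), Ndufs1 (-0.24), Uqcrc1 (-0.33) and Uqcrfs1 (-0.41). Of 20 cholesterol synthesis genes 2 were lower, Mvk, mevalonate kinase (-0.73), and Lss, lanosterol synthase (-0.47), and 0 higher; the median was 0.00 and became -0.09 with median centring. Of 22 antioxidant genes Gpx1, glutathione peroxidase 1, was higher (0.39) and Nqo1, a quinone reductase, lower (-0.79), with a median of -0.01. Ndufs1 lost the call without Lip-C OBX replicate 1, 2 or 3 or Lip-C sham replicate 1, 2 or 3, where the adjusted p reached 0.0907. Uqcrc1 lost the call without Lip-C OBX replicate 1 or Lip-C sham replicate 2, where the adjusted p reached 0.0625. Uqcrfs1 lost the call without Lip-C OBX replicate 2 or 3 or Lip-C sham replicate 1, 2 or 3, where the adjusted p reached 0.089. Lss lost the call without Lip-C OBX replicate 1, 2 or 3 or Lip-C sham replicate 1, 2 or 3 or Lip-O OBX replicate 1 or Lip-O sham replicate 1, 2 or 3, where the adjusted p reached 0.154. Gpx1 lost the call without Lip-C OBX replicate 1 or 2 or Lip-C sham replicate 2 or 3, where the adjusted p reached 0.068. Nqo1 lost the call without Lip-C OBX replicate 1 or 2 or Lip-C sham replicate 1, 2 or 3 or Lip-O OBX replicate 1 or Lip-O sham replicate 1, 2 or 3, where the adjusted p reached 0.157. Ndufs1, Uqcrc1, Uqcrfs1, Lss, Gpx1 and Nqo1 each missed the threshold in at least 1 of the settings with the probe sets averaged, with median centring, with no filter on dim probe sets, with the 6 Lip-C arrays alone, with a pseudocount of 1, with quantile normalization, with a replicate block and without moderation of the variance (highest limma adjusted p = 0.388).

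**Figure D4:**
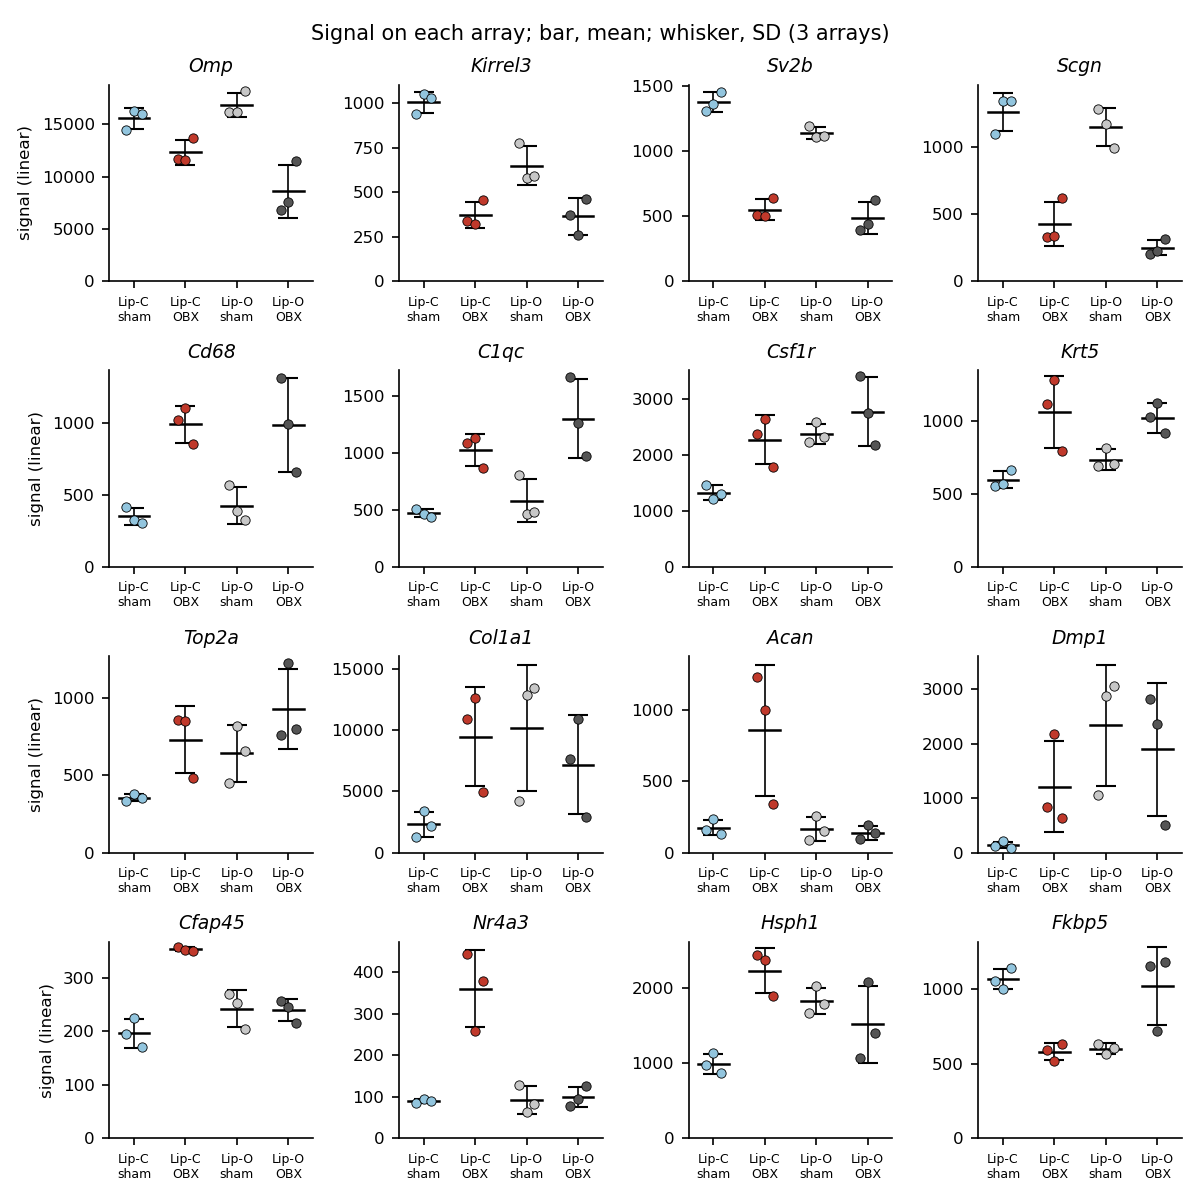
Signal (linear, y axis from 0) of 16 genes on each array by group; points are arrays, bars the mean and whiskers the SD of 3 arrays. Kirrel3, Sv2b and Scgn are lower on all OBX arrays of both treatments, Cd68 is higher on all of them, and Cfap45, Acan and Nr4a3 are higher in Lip-C OBX mice than on every other array.

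The comparison with Lip-O mice tests whether clodronate altered the response. In Lip-O mice 1465 genes (10.7%) were higher and 1211 (8.89%) lower after OBX. The Lip-O and Lip-C comparisons have no array in common, but the variance of a gene was estimated over all 12. Genes higher in both numbered 431, which is 30.6% of the Lip-C and 29.4% of the Lip-O list. Genes lower in both numbered 597, or 49.4% and 49.3%. In opposite directions, 11 genes were higher in Lip-C and lower in Lip-O mice and 12 the reverse. Of the 1407 genes higher in Lip-C mice 1192 had a positive change in Lip-O mice, and of the 1208 lower 1050 had a negative one.

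The difference between the responses, tested as an interaction in limma, passed for 0 genes, with a lowest adjusted p of 0.0747. At an unadjusted p under 0.05 it included 2405 genes (17.6%), and without moderation of the variance the count of calls was also 0. It was 155 without Lip-O OBX replicate 2, 3 without Lip-C OBX replicate 3 and 1 with no filter on dim probe sets. Of the lists, those with the most members at an unadjusted p under 0.05 were motile cilia (30 of 38), matrix (20 of 36), and bone and cartilage (19 of 26). Among mature neuron genes 7 of 31 reached it and among resident macrophage genes 5 of 37. The 6 genes with the smallest p were Nr4a1, H3c11, Has2, Spata33, Pcif1 and Agap1. Nr4a1 was at 472, 491 and 458 in Lip-O sham and 391, 493 and 446 in Lip-O OBX mice, with overlap, and its rise in Lip-C mice is given above. Spata33 changed by 0.18 in Lip-C and -0.75 in Lip-O mice, Pcif1, a cap methyltransferase, by -0.52 and 0.28, and Agap1 by -0.32 and 0.38. Agap1 lost the call without Lip-C OBX replicate 1 or 2 or Lip-C sham replicate 2 or 3, where the adjusted p reached 0.0658. Agap1 was not called with the probe sets averaged and with the 6 Lip-C arrays alone (highest limma adjusted p = 0.371).

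**Figure D5:**
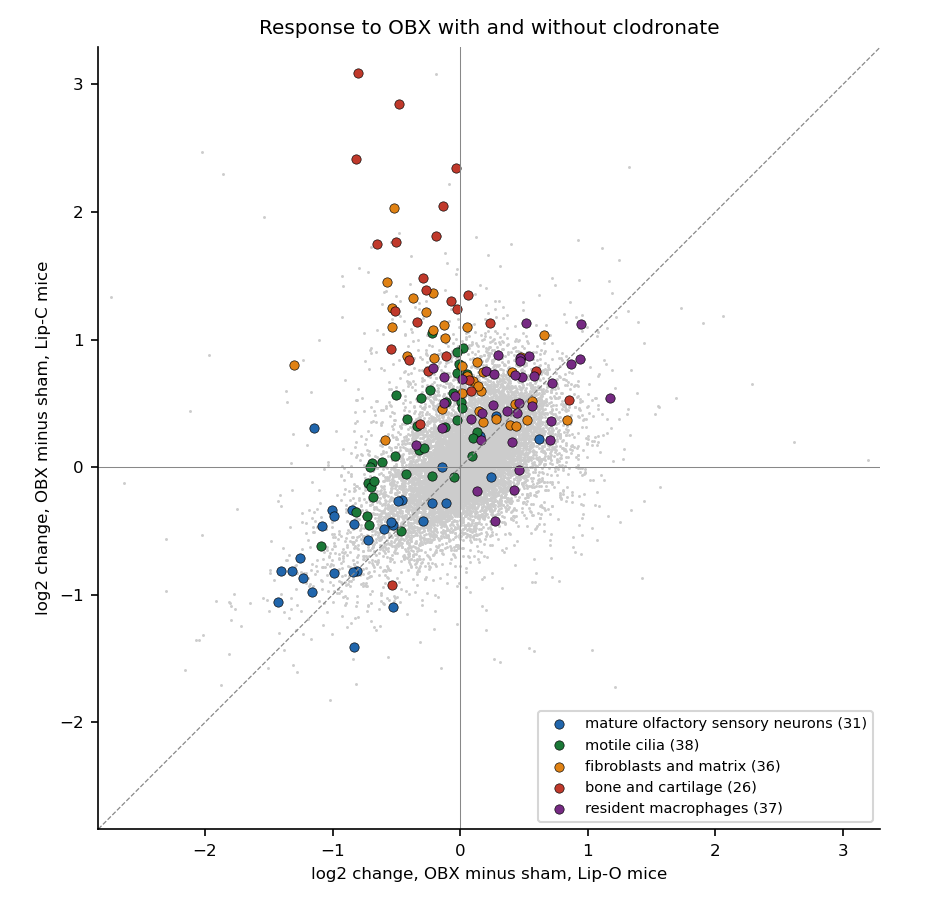
Log2 change after OBX in Lip-O mice (x axis) against that in Lip-C mice (y axis) for all 13628 genes (grey) and the members of 5 lists; the dashed line marks equal change. Most mature neuron genes lie at lower left, and 35 of 38 cilia genes lie above the dashed line. Of 26 bone and cartilage genes 25 lie above 0 on the y axis and 6 above 0 on the x axis. Of 36 matrix genes 36 and 21 do so.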

How the data were processed

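Olfactory epithelium of 12 samples was measured on one-colour Affymetrix arrays, hybridised with biotin-labelled cRNA copied from total RNA (per the labels' protocols). The authors deposited 1 intensity per probe set (45101, 64 of them controls) on a linear scale; from the values, each array was scaled to a common 2%-trimmed mean, and the algorithm that summarised probes is not given. Values were used as log2(signal + 16), a scale that understates changes of dim genes. Probe sets that exceeded the 40th percentile of at least 3 arrays were kept (28986), and each gene took its probe set with the highest mean (13628 genes). The platform annotation named 1 gene for 34945 probe sets, several for 932 and none for 9160. Of 121 other probe sets of named genes 7 had the opposite sign (of Lss, Nr4a2, Add2, Agap1, Gnao1, Notch2 and Neurog1), 0 of them at an unadjusted limma p under 0.05.

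A single linear model of the 4 groups was fitted with limma 3.58.1 under R 4.3.3 (8 residual degrees of freedom, 2.56 added by moderation). P-values are two-sided, with Benjamini-Hochberg adjustment within each of 3 comparisons. An exact permutation test of 3 against 3 cannot go below p = 0.1, so it was not used. On simulated data for OBX in Lip-C mice (13628 genes, 200 changed) the model recovered 75% of changes of 1 and 37% of changes of 0.5 on the log2 scale, with 3 false calls. The simulated noise was normal and independent for each gene and array, with no shift shared by the genes of an array. The number of false calls therefore does not measure the error where whole arrays differ, as Lip-C OBX replicate 3 did. The number of arrays limits the precision; the median standard error was 0.124. At most 0.313% of values were identical between 2 arrays.

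The comparison, its 39 gene lists and the motifs were chosen with earlier results of these data known. The genes given are the 12 largest rises and falls, 4 rises and 4 falls with a dim group, the 6 smallest p-values of the difference, up to 4 called members per list and direction, and a set of markers. Of these 189 genes 174 were called. Cdk1 and Calr were chosen for their promoters. Promoters of 300 bases came from RefSeq (GRCm38.p6). Alternatives were the pseudocount (1 or 64), no filter or a stricter filter, quantile normalization, median centring, averaging a gene's probe sets, a replicate block, no moderation, the 6 Lip-C arrays alone, and leaving out each array; list counts were added to these after seeing the data.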

Additional observations from a re-analysis of the deposited data

How the results depend on the processing

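OBX in Lip-C mice called 2615 genes, and 838 to 3030 in the 12 fits without 1 array: 395 to 1680 higher and 443 to 1350 lower, with the fewest without Lip-C OBX replicate 1 and the most without Lip-C OBX replicate 3. With no filter on dim probe sets the count was 1736 (892 higher), and with median centring 776 were higher. OBX in Lip-O mice called 2676 genes, and 1403 (without Lip-O OBX replicate 1) to 2793 without 1 array. The difference between the responses called 0, and 0 to 155 without 1 array (the most without Lip-O OBX replicate 2) and 1 with no filter. Fewer arrays leave less power by construction; the cause of the other shifts was not tested. Of the 174 called genes named, 0 reversed in any alternative, 85 lost the call in at least 1 fit without an array and 63 in at least 1 other setting. Of the changes that did not pass, 4 had another sign in some fits. Atf3 ran from -0.013 (without Lip-C OBX replicate 3) to 0.33 without 1 array, Neurod1 from -0.093 to 0.31, Ccl2 from -0.25 to 0.49 and S100a8 from -0.16 (without Lip-C sham replicate 2) to 0.35. With median centring Neurod1 was at -0.023 and Ccl2 at -0.028. Deviations of same-numbered samples from their group means had mostly positive correlations across genes, from -0.028 to 0.33. Between Lip-C OBX and Lip-C sham arrays they were 0.16, 0.04 and 0.08 for replicates 1, 2 and 3. The main model did not take the numbers as pairs, and whether same-numbered samples were handled together was not tested. With a replicate block 2997 genes were called for OBX in Lip-C mice and 2971 in Lip-O mice. The number of arrays and signals near background limit what could be detected.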

Other observations

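Genes of the cytosolic heat shock response were grouped after their values were seen, so the counts describe and test nothing. Hspa1a and Hspa1b are also in the list of amino acid and endoplasmic reticulum stress genes. Of 16 measured, 6 were higher after OBX in Lip-C mice and 0 lower (median log2 change 0.28), and in Lip-O mice 2 were higher and 2 lower (median -0.05). Over all genes, 10.3% were higher and 8.86% lower in Lip-C mice, and 10.7% and 8.89% in Lip-O mice. Hsph1, a large chaperone of the HSP110 family, had signals of 971, 1136 and 875 in Lip-C sham and 2437, 2370 and 1887 in Lip-C OBX mice, a log2 change of 1.15 ± 0.21 (limma, adjusted p = 0.00761). In Lip-O mice its change was -0.31. Fkbp4, a partner of the chaperone HSP90, rose by 0.55 and Bag3, which links chaperones to autophagy, by 0.52. Dnajb1, Chordc1 and Ahsa1 were called as well but lost the call without Lip-C OBX replicate 1 or 2 or Lip-C sham replicate 3 (highest adjusted p = 0.13), which left 3 higher in each of these fits; 4 were higher without Lip-C sham replicate 2 and with median centring, and 9 without Lip-O OBX replicate 1. Averaging probe sets ended the calls of Fkbp4 (limma adjusted p = 0.226) and Ahsa1 (0.480), while Hspa1b (0.0240) and Hsp90aa1 (0.0400) passed there. Ahsa1 also lost the call with median centring (0.188), with no filter on dim probe sets and with the 6 Lip-C arrays alone. It lost it too without Lip-C sham replicate 1 or 2 or Lip-O sham replicate 2. Dnajb1 also lost the call with median centring (0.0657) and without Lip-C sham replicate 2 (0.0553). Hspa1a was not called (0.01). Cirbp, which encodes a cold-inducible RNA-binding protein, moved the other way: 3384, 3144 and 3627 in Lip-C sham and 1128, 1445 and 1623 in Lip-C OBX mice (log2 change -1.28 ± 0.18, adjusted p = 0.00469), with 0.20 in Lip-O mice. The differences between the responses of Hsph1 and Cirbp did not pass after adjustment (adjusted p = 0.0800 and 0.0776).

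Genes induced by glucocorticoids were grouped in the same way. Of 13 measured, 0 were higher and 2 lower after OBX in Lip-C mice (median -0.05), and 7 were higher and 0 lower in Lip-O mice (median 0.39). The shares of all genes were 10.3% higher and 8.86% lower in Lip-C mice, and 10.7% and 8.89% in Lip-O mice. Fkbp5, a chaperone partner of the glucocorticoid receptor, was at 1057, 1005 and 1141 in Lip-C sham and 593, 522 and 631 in Lip-C OBX mice (log2 change -0.86 ± 0.17, adjusted p = 0.00927). It was at 634, 563 and 607 in Lip-O sham and 1160, 722 and 1184 in Lip-O OBX mice (0.72 ± 0.17, adjusted p = 0.0143). Tsc22d3, which encodes the leucine zipper protein GILZ, changed by -0.89 in Lip-C mice (adjusted p = 0.0245) and by 0.78 in Lip-O mice (adjusted p = 0.0374). Tsc22d3 lost the Lip-C call without Lip-C OBX replicate 1, 2 or 3 or Lip-C sham replicate 2 or 3 (highest adjusted p = 0.0769) and without moderation of the variance (0.051). For both genes Lip-O OBX replicate 2 lay below replicates 1 and 3 of its group and nearer to the Lip-O sham arrays; Tsc22d3 was at 3080, 1492 and 2776 in Lip-O OBX and 1479, 1308 and 1297 in Lip-O sham mice. The difference between the responses of Fkbp5 had an adjusted p of 0.0747, and 0.00118 without Lip-O OBX replicate 2.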
